A study of Mus musculus with 12 samples.

Results

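The genes described here encode the working parts of the lysosome: the hydrolases that digest macromolecules, proteins of the lysosomal membrane, the proton pump (V-ATPase) that acidifies the lumen, and the MiT/TFE transcription factors that bind lysosomal promoters. They are 50 mouse genes, taken by gene name from the table of raw counts, which holds 55487 genes. The list has 26 hydrolases and activator proteins, 8 membrane proteins, 13 subunits or accessory proteins of the V-ATPase and 3 MiT/TFE factors. All 50 were found, and 49 had enough counts to be among the 16808 genes tested. The exception was Ctss, the protease cathepsin S, which had 0 counts in all 12 libraries. With 3 counts taken as the limit, this allows up to 0.280 CPM in the shallowest library and 0.154 CPM in the deepest, where CPM are counts scaled to the library's size and composition.

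RNA was sequenced from Min6, an insulin-producing line grown from a mouse tumour that arose from beta cells carrying a viral oncogene, so that every group is the same transformed line. Cells were treated for 48 h in 4 groups of 3 libraries each: with 1 µM AS1842856, which binds the forkhead transcription factor FoxO1 and blocks its activity (FoxOi), with 5 µM loperamide, an antidiarrhoeal drug that activates opioid receptors (Loperamide), with both compounds at those doses (FoxOi_Loperamide), or with DMSO alone. The series title presents the inhibitor as a model of beta cell dedifferentiation. No label says if the libraries of a group were separate cultures, so p-values measure the spread between these libraries, which may be technical. Depth ran from 10640485 counts (Loperamide replicate 1) to 19499216 counts (FoxOi replicate 3), and replicate libraries scattered 4.99 to 31.6 times as widely, as a variance, as counting alone would give.

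All 8 beta cell markers were detected in every group. Their summed level ran from 34623 to 39431 CPM in FoxOi libraries, 62698 to 63116 CPM in Loperamide libraries, 26779 to 31575 CPM in FoxOi_Loperamide libraries and 61035 to 84669 CPM in DMSO libraries. Most of it was Ins2 and Iapp, at means of 46622 and 18254 CPM in DMSO. Against DMSO 6, 3 and 6 of the 8 were lower with FoxOi, loperamide and both, and 0 higher (edgeR, adjusted p under 0.05). Of all genes tested 20.3%, 15.8% and 23.2% were lower. Mafa averaged 86.5 CPM with FoxOi and 811 CPM in DMSO, and G6pc2 1705 and 1665 CPM. Lysosomal genes are also abundant in macrophages, and 13 macrophage and leukocyte markers summed to 13.9 to 21.5 CPM with FoxOi, 18.6 to 23.1 CPM with loperamide, 6.04 to 9.41 CPM with both and 36.8 to 57.9 CPM in DMSO. Most of that was C1qa, a complement gene, followed by Lyz2 at means of 2.54 to 3.24 CPM in the 4 groups. Csf1r, Cd14 and Itgam had more counts with FoxOi, 62, 16 and 11 over the 3 libraries, than in DMSO, with 26, 2 and 2. Cd14 and Itgam had too few counts to be tested, and Csf1r was tested and not called with FoxOi. Of the 3 markers tested, 0 were called higher with FoxOi and 1, C1qa, lower, beside 20.7% and 20.3% of all genes tested. Fcer1g had 10, 11, 5 and 19 counts with FoxOi, loperamide, both and DMSO. The other 7 markers had 3 counts or fewer in each group, and 2 of them, Tyrobp and C1qb, had 0 in all. The part that these shifts of marker genes had in the lysosomal values was not tested. In bulk libraries of this kind, fewer cells of a type and less RNA per cell cannot be told apart.

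Lysosomes receive material by endocytosis and autophagy and degrade it with hydrolases that work at acid pH, which the V-ATPase maintains by pumping protons at the expense of ATP. TFEB, TFE3 and MITF bind a short palindrome, the CLEAR element, in the promoters of many of these genes, and in fed cells TFEB and TFE3 are held in the cytosol by the nutrient-sensing kinase mTOR on the lysosomal surface. In beta cells lysosomes also take in surplus insulin granules, and several cathepsins are known from the breakdown of proteins delivered that way.

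The CLEAR core, TCACGTGA, contains the E-box CACGTG, and both read the same on either strand. It was searched, as a description of the sequence only, in RefSeq promoters (GRCm38.p6) that run from 250 bases before to 50 bases after the start site. Of the members, 43 matched by symbol (all but Ctsb, Asah1, Galns, Laptm4b, Atp6v1b2, Atp6v1c1 and Atp6v1h). TCACGTGA stood in 8 of these 43 promoters (18.6%) and in 1.12% of the promoters of 27025 genes. CACGTG stood in 17 of 43 (39.5%) and in 8.09% of all. The forkhead sequence TGTTTAC, searched on both strands, stood in 0 of 43 members and in 4.05% of all promoters, which says only that these letters are not in these windows. The stretches around the CLEAR core are shown for 6 members described with their values, 3 hydrolases, 2 membrane proteins and a V-ATPase subunit, with each core that lies before the start site in capitals and up to 30 bases on each side, ending at the start site, 5′ to 3′ on the gene's own strand.
Gla: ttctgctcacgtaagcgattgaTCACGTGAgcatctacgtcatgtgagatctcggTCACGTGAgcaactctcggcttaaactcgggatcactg
Ctsd: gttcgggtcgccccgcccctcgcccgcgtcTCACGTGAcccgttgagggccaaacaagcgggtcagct
Ctsa: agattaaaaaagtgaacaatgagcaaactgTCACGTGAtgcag
Mcoln1: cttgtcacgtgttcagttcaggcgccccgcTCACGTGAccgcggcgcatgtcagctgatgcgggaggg
Cln3: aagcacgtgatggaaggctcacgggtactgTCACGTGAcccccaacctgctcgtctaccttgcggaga
Atp6v1a: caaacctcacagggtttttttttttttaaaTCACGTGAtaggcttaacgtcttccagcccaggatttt
The first stretch, at chrX:134601163-134601255 on the minus strand, holds 2 copies of the core, starting 228 and 195 bases before the start site of Gla. In Ctsd the core begins 99 bases before the start site at chr7:142387889-142387956 on the minus strand, and in Ctsa 13 bases before it at chr2:164833730-164833772 on the plus strand. The promoter of Ctsa holds a second copy, beginning at base 5 after the start site, which is not shown. Mcoln1 has it 46 bases before at chr8:3500443-3500510 on the plus strand, Cln3 122 bases before at chr7:126583321-126583388 on the minus strand and Atp6v1a 132 bases before at chr16:44139354-44139421 on the minus strand. The other 2 promoters with the core were those of Atp6v0d1 and Atp6v0e, where it lies across or just after the start site. The core stood in 6 of the 24 members with a promoter entry that rose with FoxOi, in 0 of 1 that fell and in 2 of the 17 that were not called. With loperamide it stood in 3 of 15 that rose, 2 of 7 that fell and 3 of 20 not called, and with both in 6 of 25, 0 of 5 and 2 of 12. Promoters of the MiT/TFE factors held neither the core nor the E-box in this window (0 of 3).

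Levels per gene length (FPKM, scaled to gene length and library size) spanned a wide range in DMSO libraries. Psap, the precursor of the saposins that present lipids to hydrolases, was the most abundant member at a mean of 689 FPKM, ahead of Lamp1, the main glycoprotein of the lysosomal membrane, at 537 FPKM and the proton-ring subunit Atp6v0c at 403 FPKM. The least abundant tested members were Manba at 2.75 FPKM, Tfeb at 2.37 FPKM and Mitf at 0.926 FPKM, while Tfe3 was at 18.6 FPKM. Together the members took 1.84 to 2.03% of all counts in FoxOi libraries, 1.49 to 1.57% in Loperamide libraries, 1.97 to 2.17% in FoxOi_Loperamide libraries and 1.32 to 1.40% in DMSO libraries. The ranges of the 3 treated groups all lay above the DMSO range, and those of FoxOi and FoxOi_Loperamide overlapped. These are shares of raw counts, not scaled for composition. The scaling factors for composition were 0.919 to 0.952 in DMSO libraries and 0.994 to 1.07 in treated libraries, so such scaling narrows the gap to DMSO.

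FoxOi was set against DMSO to ask what the inhibitor did to these genes. Most of them rose: 30 of the 49 tested members were higher and 2 were lower at an adjusted p under 0.05 (edgeR's quasi-likelihood test with Benjamini-Hochberg adjustment over all 16808 genes, as for every adjusted p here). Of all genes tested, 20.7% were higher and 20.3% lower, 40.9% in all. The rise took in 13 of 25 tested hydrolases, 6 of 8 membrane proteins, 10 of 13 V-ATPase genes and 1 of 3 MiT/TFE factors, and the 2 that fell, Ctsf and Galns, were hydrolases. Changes were moderate, with a median log2 fold change of 0.37 over the members and 0.01 over all genes tested. Of the 49 tested members 4 (Cd63, Gla, Neu1 and Tpp1) were called with a change of at least 2-fold. So were 1860 of all 16808 genes tested. Libraries did not overlap between the groups for 32 of the 49 tested members that were higher and 2 that were lower. Of all genes tested this held for 24.4% higher and 24% lower. Under every alternative processing, 29 of the 32 calls held. Log2 fold changes are given ± their standard error, and a value in brackets after the name of another setting is the adjusted p under that setting. Gene positions are those of the authors' tables, on GRCm38.

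With loperamide alone 18 of the 49 tested members were higher and 8 lower than in DMSO. Of all genes tested 16.1% were higher and 15.8% lower (31.9% in all). The share of members called lower was thus near that of all genes. All 8 that fell were hydrolases: Galns, Ctsz, Gla, Smpd1, Ctsl, Ctsa, Gusb and Naglu. Against them 7 hydrolases rose, among them Tpp1 and Man2b1, as did 3 membrane proteins, 7 V-ATPase genes and Tfeb. The median over the members was 0.17 and that over all genes tested 0.02. Without overlap between libraries were 22 higher and 12 lower members, and 22.3% and 20.8% of all genes tested. With the replicate number as a block, which pairs the libraries, 27 members were higher and 13 lower, beside 25.8% and 22.9% of all genes tested.

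Both compounds together raised 31 members and lowered 6 against DMSO, where 22.3% of all genes tested were higher and 23.2% lower (45.5% in all). Higher were 14 hydrolases, 6 membrane proteins and 11 V-ATPase genes, and lower were 5 hydrolases (Galns, Ctsf, Ctsz, Smpd1 and Gusb) and Mitf. The median was 0.40 over the members and 0.01 over all genes tested. Called with a change of at least 2-fold were 8 of the 49 tested members, beside 2317 of all 16808 genes tested. Members without overlap were 32 higher and 7 lower, and 25.7% and 26.4% of all genes tested. These 3 comparisons use the same DMSO libraries, so that their values stand side by side below and are not independent of each other.

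**Figure D1:**
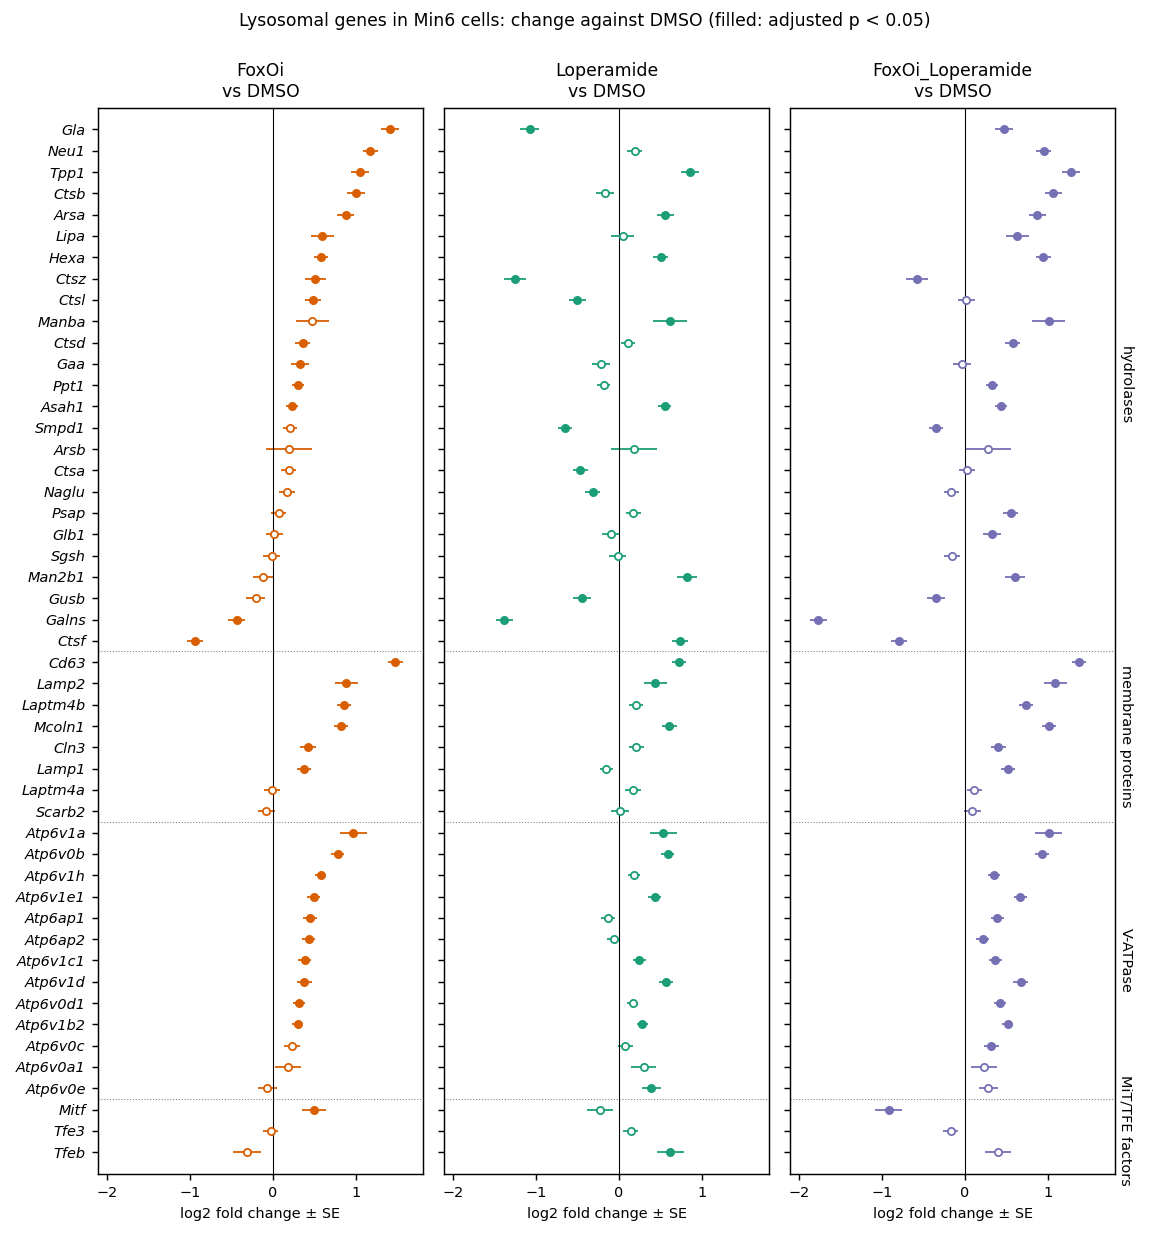
Change of each of the 49 tested lysosomal genes (rows, grouped by class) against DMSO with FoxOi, loperamide or both; the x axis is the log2 fold change with its standard error, and filled points passed an adjusted p of 0.05. Membrane proteins and V-ATPase genes lie mostly right of 0 in all 3 panels, while hydrolases lie on both sides in each. Hydrolases run from -0.94 to 1.40 with FoxOi, from -1.38 (Galns) to 0.85 (Tpp1) with loperamide and from -1.76 to 1.27 with both.

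Cathepsins, the main lysosomal proteases, did not move as one. Ctsb, a cysteine protease (ENSMUSG00000021939, chr14:63122462-63145923), had 1159, 1079 and 1296 CPM in the FoxOi libraries, 508, 505 and 567 CPM in the Loperamide libraries and 1234, 1050.3 and 1423 CPM in the FoxOi_Loperamide libraries. Ctsb had 588, 578 and 607 CPM in the DMSO libraries. Every library with the inhibitor was above every library without it, and the Loperamide libraries were all below those of DMSO, though that difference missed the threshold. Log2 fold changes against DMSO were 1.00 ± 0.11 with FoxOi, -0.17 ± 0.11 with loperamide and 1.06 ± 0.11 with both compounds (adjusted p = 4.06e-06, 0.257 and 1.52e-06). With both this was a 2.09-fold rise. With the replicate block loperamide's difference was called (0.0235).

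Ctsd, the aspartic protease whose promoter is shown above (ENSMUSG00000007891, chr7:142375911-142388038), had 539, 498 and 588 CPM in the FoxOi libraries, 438, 486 and 444 CPM in the Loperamide libraries and 646, 574 and 669 CPM in the FoxOi_Loperamide libraries. Ctsd had 439, 423 and 407 CPM in the DMSO libraries. Libraries with both compounds were highest in mean and all FoxOi libraries were above DMSO, while Loperamide and DMSO overlapped. It rose by 0.36 ± 0.09 (adjusted p = 0.00428) with FoxOi and 0.57 ± 0.09 (adjusted p = 8.74e-05) with both, and was at 0.11 ± 0.09 (adjusted p = 0.377) with loperamide.

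Ctsl, a cysteine protease that also cuts prohormones (ENSMUSG00000021477, chr13:64359337-64370890), went opposite ways with the 2 compounds. It had 599, 513 and 562 CPM in the FoxOi libraries, 296, 274 and 276 CPM in the Loperamide libraries and 453, 368 and 389.8 CPM in the FoxOi_Loperamide libraries. Ctsl had 446, 365 and 386 CPM in the DMSO libraries. FoxOi libraries were all above and Loperamide libraries all below DMSO, and the libraries with both compounds overlapped those of DMSO. The log2 fold changes were 0.48 ± 0.10 with FoxOi, -0.50 ± 0.10 with loperamide and 0.02 ± 0.10 with both compounds (adjusted p = 0.00126, 0.00144 and 0.913).

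Ctsf, another cysteine protease (ENSMUSG00000083282, chr19:4855130-4860918), showed the reverse. It had 31.6, 27.9 and 29.4 CPM in the FoxOi libraries, 99.4, 87.1 and 97.1 CPM in the Loperamide libraries and 32.9, 29.6 and 35.6 CPM in the FoxOi_Loperamide libraries. Ctsf had 62.2, 53.8 and 54.5 CPM in the DMSO libraries. No group overlapped DMSO, and the 2 groups with the inhibitor overlapped each other. Log2 fold changes were -0.94 ± 0.10 with FoxOi, 0.73 ± 0.10 with loperamide and -0.80 ± 0.10 with both compounds (adjusted p = 3.16e-06, 4.48e-05 and 1.11e-05). FoxOi lowered it 1.92-fold and loperamide alone raised it 1.66-fold. Ctsz, a carboxypeptidase, averaged 560.3 ± 58.9 CPM in FoxOi libraries, 165 ± 18.6 CPM in Loperamide libraries, 264 ± 35.8 CPM in FoxOi_Loperamide libraries and 393 ± 63.4 CPM in DMSO libraries (SD, n = 3 each). It rose by 0.51 ± 0.13 (adjusted p = 0.00555) with FoxOi, fell by 1.25 ± 0.13 (adjusted p = 7.36e-06) with loperamide and fell by 0.57 ± 0.13 (adjusted p = 0.00230) with both. Ctsa, a carboxypeptidase that shields Neu1 from degradation and carries the CLEAR core, fell by 0.46 ± 0.09 (adjusted p = 0.00169) with loperamide. It was at 0.19 ± 0.09 (adjusted p = 0.126) with FoxOi, a value called without DMSO replicate 1 (0.0454) and with the replicate number as a block (0.0147).

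**Figure D2:**
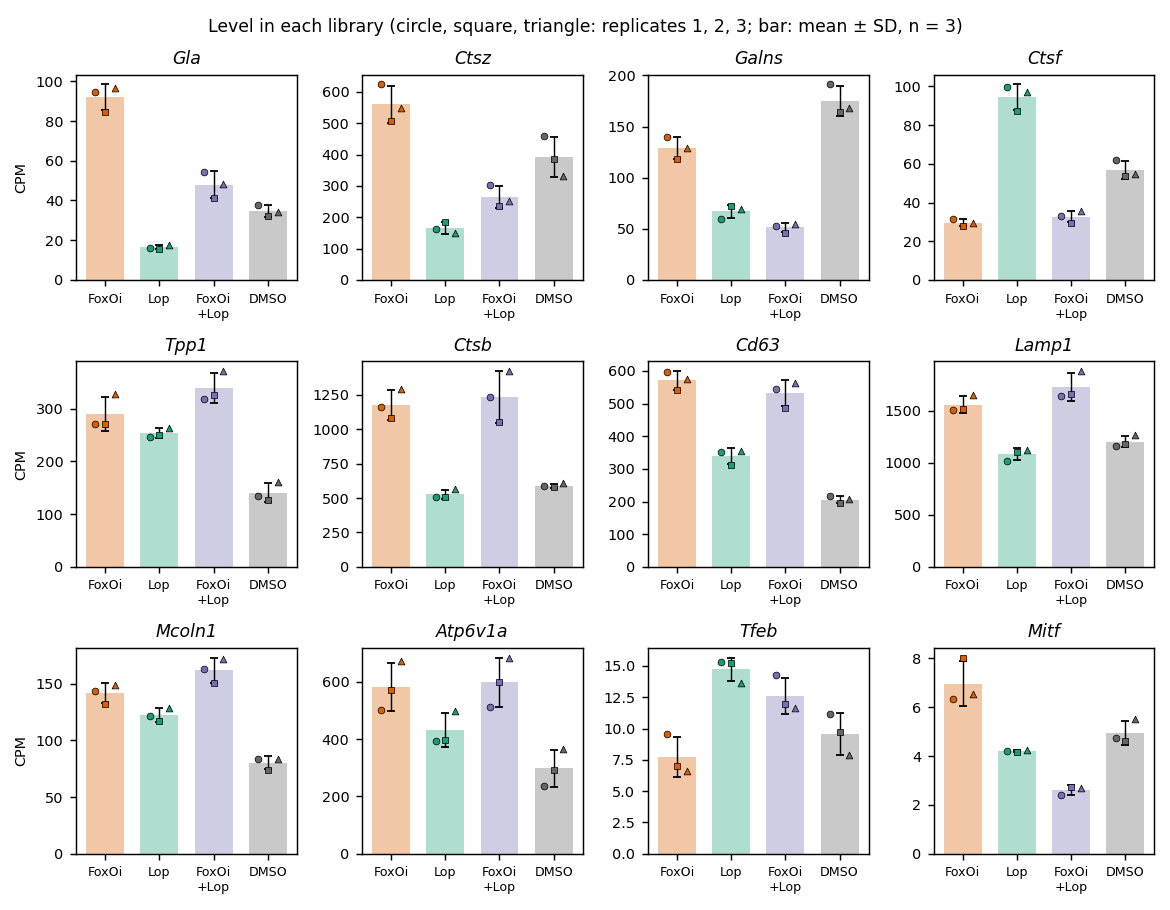
Level of 12 lysosomal genes in every library, in CPM; bars are means of 3 libraries with their SD, and circles, squares and triangles are replicates 1, 2 and 3. Gla, Ctsz and Ctsf differ in direction between FoxOi and Loperamide, while Tpp1, Cd63, Mcoln1 and Atp6v1a are above DMSO in all 3 treated groups.

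Among the glycosidases, which cut sugars from glycoproteins and glycolipids, Gla had the widest swing. It encodes alpha-galactosidase A, the enzyme missing in human Fabry disease (ENSMUSG00000031266, chrX:134588149-134601125), and had 94.4, 84.4 and 96.8 CPM in the FoxOi libraries, 16.3, 15.5 and 17.5 CPM in the Loperamide libraries and 54.5, 41.2 and 48.1 CPM in the FoxOi_Loperamide libraries. Gla had 37.8, 32.0 and 34.3 CPM in the DMSO libraries. None of the 4 groups overlapped, with FoxOi highest, FoxOi_Loperamide next, then DMSO, and Loperamide lowest. Its log2 fold changes were 1.40 ± 0.11 with FoxOi, -1.08 ± 0.12 with loperamide and 0.47 ± 0.11 with both compounds (adjusted p = 1.65e-07, 8.58e-06 and 0.00281). FoxOi exceeded Loperamide by 2.48 ± 0.12 (adjusted p = 1.00e-09), or 5.58-fold.

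Neu1, a sialidase, rose by 1.17 ± 0.09 (adjusted p = 1.78e-07) with FoxOi and 0.95 ± 0.09 (adjusted p = 9.94e-07) with both. It was at 0.19 ± 0.09 (adjusted p = 0.129) with loperamide, called with the replicate block (0.00527). Hexa, the alpha chain of the hexosaminidase lost in human Tay-Sachs disease, rose with each compound and with both: 0.58 ± 0.09 (adjusted p = 9.47e-05) with FoxOi, 0.50 ± 0.09 (adjusted p = 0.000495) with loperamide and 0.94 ± 0.09 (adjusted p = 6.79e-07) with both. Glb1, beta-galactosidase, was higher with both compounds by 0.33 ± 0.10 (adjusted p = 0.0199), a call lost without FoxOi_Loperamide replicate 3 (0.0959) or DMSO replicate 2 (0.0800). Gusb, beta-glucuronidase, fell by 0.44 ± 0.11 (adjusted p = 0.00769) with loperamide and by 0.35 ± 0.11 (adjusted p = 0.0198) with both. The second call was lost without FoxOi_Loperamide replicate 1 (0.0840) or FoxOi_Loperamide replicate 2 (0.0675) or DMSO replicate 3 (0.0613). With FoxOi Gusb was at -0.21 ± 0.11 (adjusted p = 0.160), called as lower with the replicate number as a block (0.00259). Naglu, which trims heparan sulfate, fell by 0.32 ± 0.09 (adjusted p = 0.0188) with loperamide, a call lost without Loperamide replicate 1 (0.0732). Naglu was at 0.17 ± 0.09 (adjusted p = 0.171) with FoxOi, called with the replicate number as a block (0.0468), and at -0.16 ± 0.09 (adjusted p = 0.168) with both, called as lower with the replicate number as a block (0.0417).

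Man2b1, the lysosomal alpha-mannosidase (ENSMUSG00000005142, chr8:85083270-85098282), rose in the groups given loperamide. It had 117, 119 and 143 CPM in the FoxOi libraries, 227, 221 and 274 CPM in the Loperamide libraries and 195, 193 and 233 CPM in the FoxOi_Loperamide libraries. Man2b1 had 128, 127 and 156 CPM in the DMSO libraries. Both groups with loperamide were above DMSO in every library, and FoxOi overlapped DMSO. The log2 fold changes were -0.12 ± 0.12 with FoxOi, 0.81 ± 0.12 with loperamide and 0.60 ± 0.12 with both compounds (adjusted p = 0.468, 0.000128 and 0.000869). Manba, beta-mannosidase, was low, at 20.3 ± 1.76 CPM in FoxOi_Loperamide libraries and 10.1 ± 3.14 CPM in DMSO libraries (SD, n = 3 each). It rose by 1.01 ± 0.20 (adjusted p = 0.00101) with both compounds. Its rise of 0.62 ± 0.21 (adjusted p = 0.0353) with loperamide, where the groups overlapped, was lost without Loperamide replicate 2 or 3 or DMSO replicate 1 or 2 (0.0661 to 0.151), in a fit of the compared groups alone (0.0677) and on unfiltered FPKM (0.113). With FoxOi Manba was at 0.48 ± 0.20 (adjusted p = 0.0781), called without DMSO replicate 3 (0.00994), with no filter on low counts (0.0111) and with the replicate number as a block (0.00114). Gaa, the acid alpha-glucosidase of glycogen breakdown, rose by 0.32 ± 0.11 (adjusted p = 0.0256) with FoxOi, a call lost without FoxOi replicate 1 or 3 or DMSO replicate 1 or 2 (0.0530 to 0.134) and on unfiltered FPKM (0.0905). With loperamide it was at -0.21 ± 0.11 (adjusted p = 0.149), called as lower with the replicate number as a block (0.00264).

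Of the 4 enzymes that remove sulfate groups, Galns fell most. It acts on keratan sulfate (ENSMUSG00000015027, chr8:122578242-122611463) and had 139, 119 and 129 CPM in the FoxOi libraries, 59.6, 72.2 and 69.3 CPM in the Loperamide libraries and 53.2, 46.0 and 55.0 CPM in the FoxOi_Loperamide libraries. Galns had 191, 164 and 168 CPM in the DMSO libraries. All 3 treated groups were below DMSO in every library, and every library with both compounds was below every Loperamide library. It was the only member lower in all 3 comparisons with DMSO, at -0.44 ± 0.10 with FoxOi, -1.38 ± 0.10 with loperamide and -1.76 ± 0.10 with both compounds (adjusted p = 0.00303, 3.15e-07 and 8.05e-09). With both it fell 3.40-fold. Arsa, which acts on sulfatide, rose by 0.88 ± 0.10 (adjusted p = 1.00e-05) with FoxOi, 0.56 ± 0.10 (adjusted p = 0.000832) with loperamide and 0.87 ± 0.10 (adjusted p = 8.21e-06) with both. Sgsh, of heparan sulfate breakdown, was between -0.16 and -0.01 on the log2 scale in the 3 comparisons with DMSO and was not called in any of them. Arsb, of dermatan sulfate breakdown, was not called either. Its values followed the replicate number, lying at 125 to 151 CPM in the 4 libraries numbered 3 and at 69.0 to 88.9 CPM in the 4 numbered 1. With the replicate number as a block, Arsb was higher in all 3 (adjusted p = 0.00798 with FoxOi, 0.0178 with loperamide and 0.000572 with both).

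Tpp1, a peptidase that clips tripeptides and whose loss causes a childhood form of Batten disease in humans (ENSMUSG00000030894, chr7:105744811-105752235), rose with every treatment. It had 271, 271 and 328 CPM in the FoxOi libraries, 247, 251 and 264 CPM in the Loperamide libraries and 318, 327 and 371 CPM in the FoxOi_Loperamide libraries. Tpp1 had 134, 126 and 161 CPM in the DMSO libraries. All treated libraries were above all DMSO libraries, and the FoxOi and FoxOi_Loperamide libraries overlapped. Log2 fold changes were 1.05 ± 0.11 with FoxOi, 0.85 ± 0.11 with loperamide and 1.27 ± 0.11 with both compounds (adjusted p = 2.59e-06, 3.15e-05 and 2.74e-07). Ppt1, which removes palmitate from proteins, rose by 0.30 ± 0.07 (adjusted p = 0.00466) with FoxOi and 0.33 ± 0.07 (adjusted p = 0.00231) with both. Ppt1 was at -0.18 ± 0.07 (adjusted p = 0.0736) with loperamide, a value called with DESeq2 (0.0392), with the replicate number as a block (0.0126), on FPKM with a pseudocount of 1 (0.0436), on FPKM with a pseudocount of 0.1 (0.0464) and on unfiltered FPKM (0.0462).

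Of the lipid-handling proteins, Smpd1, acid sphingomyelinase, fell by 0.65 ± 0.09 (adjusted p = 4.46e-05) with loperamide and by 0.35 ± 0.08 (adjusted p = 0.00359) with both. Smpd1 was at 0.21 ± 0.08 (adjusted p = 0.0605) with FoxOi, called with the replicate number as a block (0.00383). Asah1, acid ceramidase, rose by 0.55 ± 0.07 (adjusted p = 5.57e-05) with loperamide and 0.44 ± 0.07 (adjusted p = 0.000209) with both. Its smaller rise with FoxOi, 0.23 ± 0.07 (adjusted p = 0.0218), was lost without FoxOi replicate 2 or 3 or DMSO replicate 1 or 2 (0.0625 to 0.152), with no filter on low counts (0.119) and in a fit of the compared groups alone (0.0656). Lipa, the acid lipase of cholesteryl esters, rose by 0.59 ± 0.14 (adjusted p = 0.00271) with FoxOi and 0.63 ± 0.14 (adjusted p = 0.00160) with both. It was at 0.04 ± 0.14 (adjusted p = 0.844) with loperamide. Psap rose with both compounds by 0.55 ± 0.09 (adjusted p = 0.000196). Its other values were 0.07 ± 0.09 (adjusted p = 0.575) with FoxOi and 0.17 ± 0.09 (adjusted p = 0.166) with loperamide, the second called with the replicate number as a block (0.0211).

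Of the 8 membrane proteins, 6 rose with FoxOi, 3 with loperamide and 6 with both, beside 20.7%, 16.1% and 22.3% of all genes tested. Against DMSO 0 were lower in edgeR's test, also at an unadjusted p under 0.05, and 0 with DESeq2. In edgeR's test 20.3%, 15.8% and 23.2% of all genes were lower. With the replicate block 6 membrane proteins were higher and 1 (Lamp1) was lower with loperamide, beside 25.8% and 22.9% of all genes tested. Cd63, a tetraspanin of late endosomes and granules (ENSMUSG00000025351, chr10:128900989-128912822), changed most. It had 597, 541 and 575 CPM in the FoxOi libraries, 353, 311 and 354 CPM in the Loperamide libraries and 544, 487 and 565 CPM in the FoxOi_Loperamide libraries. Cd63 had 216, 195 and 206 CPM in the DMSO libraries. The 2 groups with the inhibitor were highest and overlapped, the Loperamide libraries lay between, and the 3 DMSO libraries were lowest. The log2 fold changes were 1.47 ± 0.09 with FoxOi, 0.72 ± 0.09 with loperamide and 1.37 ± 0.09 with both compounds (adjusted p = 1.34e-08, 2.04e-05 and 1.50e-08). The rise with FoxOi was 2.78-fold.

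Lamp1 (ENSMUSG00000031447, chr8:13159161-13175338) had 1506, 1517 and 1652 CPM in the FoxOi libraries, 1019, 1108 and 1124 CPM in the Loperamide libraries and 1639.9, 1658 and 1881 CPM in the FoxOi_Loperamide libraries. Lamp1 had 1164, 1179 and 1265 CPM in the DMSO libraries. Libraries with the inhibitor were all above DMSO, and those with loperamide alone were all slightly below it. Log2 fold changes were 0.37 ± 0.08 with FoxOi, -0.15 ± 0.08 with loperamide and 0.52 ± 0.08 with both compounds (adjusted p = 0.00211, 0.183 and 0.000124). Loperamide's value was called with the replicate block (0.0230). Lamp2, the receptor of chaperone-mediated autophagy among other roles (ENSMUSG00000016534, chrX:38401357-38456454), had 435, 465 and 550.2 CPM in the FoxOi libraries, 319, 338 and 409 CPM in the Loperamide libraries and 501, 529 and 640.2 CPM in the FoxOi_Loperamide libraries. Lamp2 had 235, 241 and 311 CPM in the DMSO libraries. Replicate 3 was the highest library of each group, and no treated group overlapped DMSO. Lamp2 rose by 0.88 ± 0.14 (adjusted p = 0.000121) with FoxOi, 0.44 ± 0.14 (adjusted p = 0.0235) with loperamide and 1.09 ± 0.14 (adjusted p = 1.53e-05) with both. Its loperamide call was lost without Loperamide replicate 3 (0.116) or DMSO replicate 1 (0.0914) or DMSO replicate 2 (0.102) and on unfiltered FPKM (0.0751).

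Mcoln1, the cation channel that lets calcium out of the lysosome (ENSMUSG00000004567, chr8:3500457-3515232), had 144, 132 and 149 CPM in the FoxOi libraries, 121, 117 and 129 CPM in the Loperamide libraries and 163, 151 and 172 CPM in the FoxOi_Loperamide libraries. Mcoln1 had 83.9, 73.7 and 83.6 CPM in the DMSO libraries. Each treated group was above DMSO in every library. Its rises were 0.82 ± 0.09 with FoxOi, 0.61 ± 0.09 with loperamide and 1.01 ± 0.09 with both compounds (adjusted p = 3.56e-06, 0.000100 and 3.17e-07). Laptm4b, which takes part in leucine transport and lipid handling at the membrane, rose by 0.86 ± 0.08 (adjusted p = 1.91e-06) with FoxOi and 0.74 ± 0.08 (adjusted p = 6.29e-06) with both. With loperamide it was at 0.21 ± 0.09 (adjusted p = 0.0777), called without Loperamide replicate 1 (0.0437) and with the replicate number as a block (0.0119). Cln3, mutated in human juvenile Batten disease, rose by 0.42 ± 0.09 (adjusted p = 0.00214) and 0.40 ± 0.09 (adjusted p = 0.00278) with the same treatments. With loperamide Cln3 was at 0.21 ± 0.09 (adjusted p = 0.106), called with the replicate number as a block (0.0344). Scarb2, which carries glucocerebrosidase to the lysosome, and Laptm4a were called in none of the 3 comparisons, with log2 fold changes from -0.08 to 0.17. With the replicate block Laptm4a was called as higher with loperamide (0.0142).

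The V-ATPase has a cytosolic sector, V1, that splits ATP and a membrane sector, V0, that carries protons. Of 13 genes, 10 rose with FoxOi, 7 with loperamide and 11 with both, beside 20.7%, 16.1% and 22.3% of all genes tested. Against DMSO 0 were lower in edgeR's test, also at an unadjusted p under 0.05, and 0 with DESeq2. In edgeR's test 20.3%, 15.8% and 23.2% of all genes were lower. With the replicate block 10 V-ATPase genes were higher and 1 (Atp6ap1) was lower with loperamide, beside 25.8% and 22.9% of all genes tested. Atp6v1a, the catalytic subunit of V1 (ENSMUSG00000052459, chr16:44085402-44139705), had 503, 573 and 672 CPM in the FoxOi libraries, 396, 398 and 500.3 CPM in the Loperamide libraries and 512, 601 and 682 CPM in the FoxOi_Loperamide libraries. Atp6v1a had 237, 292 and 365 CPM in the DMSO libraries. Within each group replicate 3 was highest and replicate 1 lowest, and no treated group overlapped DMSO. It rose by 0.97 ± 0.16 (adjusted p = 0.000315) with FoxOi, 0.53 ± 0.16 (adjusted p = 0.0221) with loperamide and 1.01 ± 0.16 (adjusted p = 0.000194) with both. For Atp6v1a the loperamide call was lost without Loperamide replicate 3 (0.0973) or DMSO replicate 1 (0.0806) or DMSO replicate 2 (0.0687) and on unfiltered FPKM (0.0690).

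Atp6v1h, the subunit that couples the 2 sectors (ENSMUSG00000033793, chr1:5070018-5162529), had 194, 187 and 179.8 CPM in the FoxOi libraries, 149, 138 and 142 CPM in the Loperamide libraries and 164, 159 and 159 CPM in the FoxOi_Loperamide libraries. Atp6v1h had 127, 124 and 126 CPM in the DMSO libraries. No 2 groups overlapped: FoxOi was highest, then FoxOi_Loperamide, Loperamide and DMSO. The log2 fold changes were 0.57 ± 0.07 with FoxOi, 0.18 ± 0.07 with loperamide and 0.35 ± 0.07 with both compounds (adjusted p = 1.55e-05, 0.0598 and 0.000892). Loperamide's value was called with DESeq2 (0.0344), with the replicate number as a block (0.00780), on FPKM with a pseudocount of 1 (0.0354), on FPKM with a pseudocount of 0.1 (0.0393) and on unfiltered FPKM (0.0281). Among the other V1 subunits, Atp6v1e1 rose by 0.49 ± 0.08, 0.43 ± 0.08 and 0.67 ± 0.08 with FoxOi, loperamide and both, and Atp6v1d by 0.38 ± 0.09, 0.57 ± 0.09 and 0.67 ± 0.09 (adjusted p from 5.41e-06 to 0.00304). Atp6v1b2 and Atp6v1c1 rose as well in all 3 comparisons, by 0.24 to 0.51. The loperamide call of Atp6v1c1 was lost without Loperamide replicate 1, 2 or 3 or DMSO replicate 1 or 2 (0.0559 to 0.118), with no filter on low counts (0.128) and in a fit of the compared groups alone (0.0538).

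In the V0 sector Atp6v0b, a proteolipid of the proton ring (ENSMUSG00000033379, chr4:117884326-117887333), had 482, 453 and 472 CPM in the FoxOi libraries, 429, 404 and 396 CPM in the Loperamide libraries and 551, 501 and 502 CPM in the FoxOi_Loperamide libraries. Atp6v0b had 297, 274 and 249 CPM in the DMSO libraries. All treated libraries were above all DMSO libraries. Log2 fold changes were 0.78 ± 0.08 with FoxOi, 0.58 ± 0.08 with loperamide and 0.92 ± 0.08 with both compounds (adjusted p = 3.40e-06, 8.28e-05 and 4.53e-07). Atp6v0d1, which links the ring to V1 (ENSMUSG00000013160, chr8:105524465-105566047), had 301, 301 and 293 CPM in the FoxOi libraries, 276, 274 and 256 CPM in the Loperamide libraries and 322, 323 and 316 CPM in the FoxOi_Loperamide libraries. Atp6v0d1 had 251, 239 and 229 CPM in the DMSO libraries. Its 4 groups did not overlap and differed little, with rises of 0.31 ± 0.07 (adjusted p = 0.00228) with FoxOi and 0.42 ± 0.07 (adjusted p = 0.000207) with both. Atp6v0d1 was at 0.16 ± 0.07 (adjusted p = 0.0897) with loperamide, called with DESeq2 (0.0496) and with the replicate number as a block (0.0125).

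Atp6v0e, a small V0 subunit (ENSMUSG00000015575, chr17:26663231-26699647), rose with loperamide alone. It had 149, 126 and 132 CPM in the FoxOi libraries, 205, 180.0 and 173 CPM in the Loperamide libraries and 190.3, 157 and 169 CPM in the FoxOi_Loperamide libraries. Atp6v0e had 162, 140.1 and 123 CPM in the DMSO libraries. Loperamide libraries were all above DMSO, and the other 2 treated groups overlapped it. It rose by 0.39 ± 0.11 (adjusted p = 0.0162) with loperamide, a call lost without Loperamide replicate 1 (0.0765) or DMSO replicate 2 (0.0621) or DMSO replicate 3 (0.0858). Atp6v0e was at -0.07 ± 0.11 (adjusted p = 0.671) with FoxOi and 0.28 ± 0.11 (adjusted p = 0.0547) with both, the last called without FoxOi_Loperamide replicate 2 (0.0435) or DMSO replicate 1 (0.0173), with no filter on low counts (0.0235) and with the replicate number as a block (0.000212). Atp6v0c, the other ring proteolipid, rose by 0.31 ± 0.09 (adjusted p = 0.0111) with both, lost without FoxOi_Loperamide replicate 1 (0.0578) or DMSO replicate 3 (0.0617). With FoxOi it was at 0.23 ± 0.09 (adjusted p = 0.0570), called with the replicate number as a block (0.000611). Its reads can be shared with 2 processed copies in the table, of which Atp6v0c-ps1 averaged 80.7 CPM with both and 61.0 CPM in DMSO, so the values of Atp6v0c are uncertain. Atp6v0a1, the subunit that carries protons against the ring, was not called against DMSO, and its library numbered 3 was the highest of each group. With the replicate block it was higher in all 3 comparisons (adjusted p = 0.00882 with FoxOi, 0.000119 with loperamide and 0.00167 with both).

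The accessory proteins, which help the pump assemble and reach its membranes, rose with the inhibitor. Atp6ap1 (ENSMUSG00000019087, chrX:74297097-74304721) had 546, 528 and 589.7 CPM in the FoxOi libraries, 357, 359 and 403 CPM in the Loperamide libraries and 531, 496 and 577 CPM in the FoxOi_Loperamide libraries. Atp6ap1 had 415, 396 and 414 CPM in the DMSO libraries. Both groups with the inhibitor were above DMSO in every library, and Loperamide overlapped DMSO. Atp6ap1 rose by 0.44 ± 0.08 (adjusted p = 0.000590) with FoxOi and 0.39 ± 0.08 (adjusted p = 0.00139) with both. It was at -0.13 ± 0.08 (adjusted p = 0.256) with loperamide, called with the replicate number as a block (0.0470). Atp6ap2, the prorenin receptor, rose by 0.43 ± 0.08 (adjusted p = 0.000452) with FoxOi. Its rise of 0.21 ± 0.08 (adjusted p = 0.0371) with both was lost without FoxOi_Loperamide replicate 1 or 3 or DMSO replicate 1 or 2 (0.0730 to 0.155), with no filter on low counts (0.0724), in a fit of the compared groups alone (0.0773) and on unfiltered FPKM (0.0598).

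**Figure D3:**
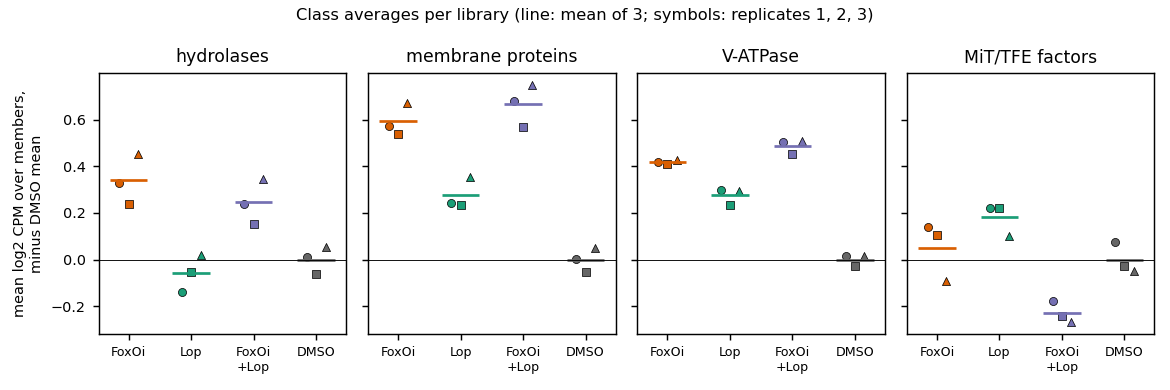
Mean log2 CPM over the tested members of each class in every library, minus the DMSO mean of that class (y axis); lines are means of 3 libraries and symbols are replicates 1, 2 and 3. V-ATPase libraries lie from 0.41 to 0.43 with FoxOi, 0.23 to 0.30 with loperamide and 0.45 to 0.51 with both, and hydrolases with loperamide from -0.14 to 0.02; the averages are descriptions without a test.

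The MiT/TFE factors did not share a pattern, and Tfe3 was called in no comparison with DMSO in the main test. Tfeb (ENSMUSG00000023990, chr17:47737030-47792419) had 9.58, 7.03 and 6.61 CPM in the FoxOi libraries, 15.3, 15.2 and 13.7 CPM in the Loperamide libraries and 14.3, 11.9 and 11.6 CPM in the FoxOi_Loperamide libraries. Tfeb had 11.1, 9.71 and 7.85 CPM in the DMSO libraries. Both groups with loperamide were above DMSO in every library, while FoxOi overlapped DMSO and had the lowest library. Tfeb rose by 0.62 ± 0.16 (adjusted p = 0.00905) with loperamide. It was at 0.40 ± 0.16 (adjusted p = 0.0542) with both, called without DMSO replicate 1 (0.0317), with no filter on low counts (0.0335) and with the replicate number as a block (0.00307). With FoxOi it was at -0.31 ± 0.16 (adjusted p = 0.146), called as lower without FoxOi replicate 1 (0.0233) or DMSO replicate 3 (0.0443) and with the replicate number as a block (0.0262).

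Mitf (ENSMUSG00000035158, chr6:97807052-98021349) had 6.33, 8.02 and 6.56 CPM in the FoxOi libraries, 4.19, 4.18 and 4.24 CPM in the Loperamide libraries and 2.39, 2.75 and 2.68 CPM in the FoxOi_Loperamide libraries. Mitf had 4.73, 4.61 and 5.50 CPM in the DMSO libraries. None of the groups overlapped: FoxOi was highest, then DMSO, Loperamide and FoxOi_Loperamide. It rose by 0.50 ± 0.14 (adjusted p = 0.0127) with FoxOi, a call lost without FoxOi replicate 2 (0.0668) or DMSO replicate 1 (0.0608) or DMSO replicate 2 (0.0735). It fell by 0.92 ± 0.16 (adjusted p = 0.000290) with both compounds, or 1.89-fold, and was at -0.23 ± 0.16 (adjusted p = 0.289) with loperamide. Tfe3 (ENSMUSG00000000134, chrX:7762560-7775202) had 69.5, 69.8 and 60.2 CPM in the FoxOi libraries, 77.7, 78.5 and 67.5 CPM in the Loperamide libraries and 64.2, 58.2 and 58.0 CPM in the FoxOi_Loperamide libraries. Tfe3 had 70.4, 66.5 and 66.2 CPM in the DMSO libraries. FoxOi and Loperamide libraries overlapped DMSO, and libraries with both were all below it. It was not called against DMSO, at -0.03 ± 0.09 with FoxOi, 0.14 ± 0.09 with loperamide and -0.17 ± 0.09 with both compounds (adjusted p = 0.843, 0.265 and 0.138). The combination's value was called with the replicate block (0.0252). These are levels of mRNA, and the place of the factors in the cell was not measured.

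FoxOi was also set against Loperamide directly, since each had its own comparison with DMSO. Of the members 23 were higher with FoxOi and 5 lower, where 25.5% of all genes tested were higher and 24.1% lower (49.6% in all). Members without overlap were 30 higher and 6 lower, and 29.6% and 28% of all genes tested. Higher were 14 hydrolases, 4 membrane proteins, 4 V-ATPase genes and Mitf. Gla exceeded its Loperamide level 5.58-fold and Ctsz 3.39-fold, with log2 differences of 2.48 ± 0.12 (adjusted p = 1.00e-09) and 1.76 ± 0.13 (adjusted p = 8.82e-08). Lower with FoxOi were Ctsf by 1.67 ± 0.10 (adjusted p = 7.06e-09), Man2b1 by 0.93 ± 0.12 (adjusted p = 1.58e-05), Tfeb by 0.93 ± 0.16 (adjusted p = 0.000245), Atp6v0e by 0.46 ± 0.11 (adjusted p = 0.00362) and Asah1 by 0.32 ± 0.07 (adjusted p = 0.00204). Of these 28 calls 24 held under every alternative; those of Ctsd, Arsa, Lamp2 and Atp6v1a did not. For Atp6v1a the difference of 0.43 ± 0.16 (adjusted p = 0.0380) was lost without FoxOi replicate 2 or 3 or Loperamide replicate 1 or 2 (0.0715 to 0.147) and on unfiltered FPKM (0.113). For Lamp2 that of 0.44 ± 0.14 (adjusted p = 0.0134) was lost without FoxOi replicate 3 (0.0649) or Loperamide replicate 1 (0.0626) or Loperamide replicate 2 (0.0529). For Arsa that of 0.32 ± 0.10 (adjusted p = 0.0183) was lost without FoxOi replicate 3 (0.0986) or Loperamide replicate 1 (0.0854) or Loperamide replicate 2 (0.0648). For Ctsd that of 0.25 ± 0.09 (adjusted p = 0.0274) was lost without FoxOi replicate 1 or 3 or Loperamide replicate 1 or 3 (0.0640 to 0.115) and on unfiltered FPKM (0.0588).

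To see what loperamide added to the inhibitor, FoxOi_Loperamide was set against FoxOi. Of the 49 tested members 9 were higher and 9 lower. Of all genes tested 11.5% were higher and 15.1% lower (26.6% in all), so the share of members called lower was near that of all genes. The median over the members was 0.05. Without overlap were 14 higher and 11 lower members, and 19.1% and 21.7% of all genes tested. The membrane proteins gave 0 calls in edgeR's test, where 1 passed an unadjusted p under 0.05, 0 with DESeq2 and 4 with the replicate block, and 4 V-ATPase genes were called. Lower with both than with FoxOi alone were Mitf by 1.42 ± 0.15 (adjusted p = 7.60e-06), Galns by 1.33 ± 0.10 (adjusted p = 3.05e-07), Ctsz by 1.09 ± 0.13 (adjusted p = 2.19e-05), Gla by 0.94 ± 0.11 (adjusted p = 1.19e-05), Smpd1 by 0.56 ± 0.08 (adjusted p = 0.000177) and Ctsl by 0.47 ± 0.10 (adjusted p = 0.00272). Higher were Man2b1 by 0.71 ± 0.12 (adjusted p = 0.000415), Tfeb by 0.71 ± 0.16 (adjusted p = 0.00409), Psap by 0.48 ± 0.09 (adjusted p = 0.00123) and Hexa by 0.37 ± 0.09 (adjusted p = 0.00560). These 10 calls held under every alternative. Of the other 8, Atp6v1h was lower by 0.22 ± 0.07 (adjusted p = 0.0312), lost without FoxOi replicate 1 or 2 or FoxOi_Loperamide replicate 1, 2 or 3 (0.0565 to 0.181), with no filter on low counts (0.263) and in a fit of the compared groups alone (0.0721). Atp6v0e was higher by 0.35 ± 0.11 (adjusted p = 0.0337), lost without FoxOi replicate 2 or 3 or FoxOi_Loperamide replicate 1 or 3 (0.0625 to 0.134) and on unfiltered FPKM (0.0776). With the replicate number as a block 18 members were higher and 13 lower, beside 21.6% and 23% of all genes tested. Without FoxOi_Loperamide replicate 1 there were 4 and 7, near the shares of all genes. Those were 1512 and 2172 genes, or 9% and 12.9% of the 16808 tested in the main fit.

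Adding the inhibitor to loperamide raised 28 members and lowered 4, where 18.4% of all genes tested were higher and 20.5% lower (38.9% in all). The median over the members was 0.28. Without overlap were 32 higher and 5 lower members, and 24.2% and 26.1% of all genes tested. Gla was higher with both than with loperamide alone by 1.54 ± 0.12 (adjusted p = 1.97e-07), Ctsb by 1.23 ± 0.11 (adjusted p = 8.32e-07), Neu1 by 0.76 ± 0.09 (adjusted p = 1.49e-05), Lamp1 by 0.67 ± 0.08 (adjusted p = 1.92e-05) and Cd63 by 0.65 ± 0.09 (adjusted p = 3.43e-05). The 4 that were lower were Ctsf by 1.53 ± 0.10 (adjusted p = 4.55e-08), Mitf by 0.69 ± 0.17 (adjusted p = 0.00438), Galns by 0.38 ± 0.10 (adjusted p = 0.00910) and Tfe3 by 0.31 ± 0.09 (adjusted p = 0.0136). The call of Galns was lost without FoxOi_Loperamide replicate 2 (0.0532), and that of Tfe3 without Loperamide replicate 1 or 2 or FoxOi_Loperamide replicate 2 or 3 (0.0511 to 0.0601) and with no filter on low counts (0.0549).

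The design also allows the question whether loperamide's effect depended on the inhibitor. The interaction is the log2 difference of FoxOi_Loperamide from FoxOi minus that of Loperamide from DMSO. It was called for 8 members, all of them negative, where 9.48% of all genes tested were called, 3.66% positive and 5.82% negative. They were 3 hydrolases (Tpp1, Ctsf and Arsa), 2 membrane proteins (Cd63 and Mcoln1), 2 V-ATPase subunits (Atp6v0b and Atp6v1h) and Mitf. For Cd63 loperamide made a difference of -0.10 ± 0.08 (adjusted p = 0.411) beside the inhibitor and 0.72 ± 0.09 (adjusted p = 2.04e-05) without it, an interaction of -0.82 ± 0.12 (adjusted p = 0.000523). For Mitf the differences were -1.42 ± 0.15 (adjusted p = 7.60e-06) beside the inhibitor and -0.23 ± 0.16 (adjusted p = 0.289) without it, an interaction of -1.19 ± 0.22 (adjusted p = 0.00299). These 2 calls held under every alternative, and each of the other 6 was lost under at least 1. With the replicate number as a block, 24 members were called, 6 positive and 18 negative, beside 11.4% and 14.4% of all genes tested.

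**Figure D4:**
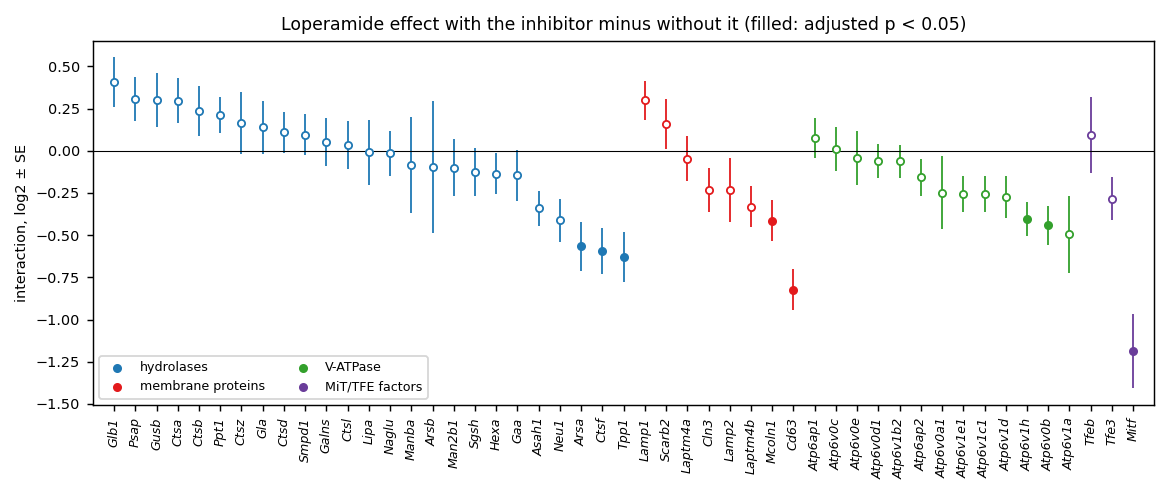
Interaction for the 49 tested lysosomal genes, sorted within each class (x axis); the y axis is that difference on the log2 scale with its standard error, and filled points passed an adjusted p of 0.05. The 8 filled points all lie below 0, from -0.40 (Atp6v1h) to -1.19 (Mitf).

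The rest of the lysosomal machinery was described through 5 further gene lists. For each comparison with DMSO, the 2 called genes of each list with the largest change were named. For reading their counts, 20.7% of all genes tested were higher and 20.3% lower with FoxOi, 16.1% and 15.8% with loperamide, and 22.3% and 23.2% with both. Of 28 other hydrolases and activators tested, 16 rose and 4 fell with FoxOi, 8 rose and 4 fell with loperamide, and 12 rose and 6 fell with both. Hgsnat, a membrane-bound acetyltransferase of heparan sulfate breakdown, rose by 2.23 ± 0.11 (adjusted p = 3.69e-09) with FoxOi and 2.18 ± 0.11 (adjusted p = 2.19e-09) with both. Ctsh, a cathepsin with aminopeptidase activity, averaged 25.9 ± 1.74 CPM in FoxOi libraries, 1.59 ± 0.641 CPM in Loperamide libraries, 3.81 ± 0.851 CPM in FoxOi_Loperamide libraries and 9.37 ± 3.66 CPM in DMSO libraries (SD, n = 3 each). It rose by 1.47 ± 0.23 (adjusted p = 0.000154) with FoxOi and fell by 2.60 ± 0.31 (adjusted p = 3.07e-05) with loperamide. With both, Ctsh was called as lower, at -1.29 (adjusted p = 0.00102). Ctso, another cathepsin, rose by 0.79 ± 0.16 (adjusted p = 0.00160) with loperamide. Ctso was called as lower with FoxOi, at -0.82 (adjusted p = 0.00107), and was at -0.02 (adjusted p = 0.937) with both. Creg1, a lysosomal glycoprotein, rose by 1.68 ± 0.12 (adjusted p = 3.69e-08) with both. Creg1 was higher as well with FoxOi, by 0.89 (adjusted p = 2.41e-05), and with loperamide, by 0.56 (adjusted p = 0.00169). The median of the list was 0.40 with FoxOi, 0.10 with loperamide and 0.12 with both. Of 22 other membrane proteins, 10 rose and 3 fell with FoxOi, 7 rose and 3 fell with loperamide, and 11 rose and 3 fell with both, with medians of 0.22, 0.22 and 0.31. Ctns, the cystine exporter, rose by 0.89 ± 0.09 (adjusted p = 2.32e-06), 0.90 ± 0.09 (adjusted p = 4.75e-06) and 1.45 ± 0.09 (adjusted p = 1.32e-08) with FoxOi, loperamide and both.

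Cd68, a glycoprotein of lysosomes and endosomes that is also used as a macrophage marker, averaged 17.8 ± 0.169 CPM in FoxOi libraries, 1.21 ± 0.172 CPM in Loperamide libraries, 4.54 ± 0.473 CPM in FoxOi_Loperamide libraries and 2.08 ± 0.596 CPM in DMSO libraries (SD, n = 3 each). It rose by 3.09 ± 0.17 (adjusted p = 8.51e-09) with FoxOi and 1.12 ± 0.19 (adjusted p = 0.000193) with both. In the list of macrophage markers, Csf1r was at 1.12 CPM with FoxOi, 0.0752 CPM with both and 0.576 CPM in DMSO, C1qa at 13.2, 4.50 and 43.0 CPM, and Tyrobp and C1qb had 0 counts. Cd14 and Itgam had 16 and 11 counts with FoxOi, 0 and 4 with both, and 2 and 2 in DMSO. Their part in the rise of Cd68 was not tested. With loperamide Cd68 fell by 0.78 ± 0.24 (adjusted p = 0.0212), lost without Loperamide replicate 1 (0.0719) or Loperamide replicate 3 (0.0583) or DMSO replicate 1 (0.145) and in a fit of the compared groups alone (0.0668). The other 14 tested V-ATPase subunits and assembly factors split evenly with FoxOi, 4 up and 4 down, with Atp6v1g1, a V1 subunit, at 0.69 ± 0.11 (adjusted p = 0.000115) and Rogdi, an assembly factor, at -0.78 ± 0.18 (adjusted p = 0.00292). Of these 2 rose and 2 fell with loperamide, and 5 rose and 4 fell with both, with medians of 0.18, 0.11 and 0.14. Atp6v1g1 rose by 0.62 ± 0.11 (adjusted p = 0.000458) with loperamide and 1.08 ± 0.11 (adjusted p = 1.24e-06) with both. Atp6v0e2, a V0 subunit, fell by 0.63 ± 0.08 (adjusted p = 2.27e-05) with loperamide. Atp6v0e2 was called as lower as well with FoxOi, at -0.41 (adjusted p = 0.000539), and with both, at -0.61 (adjusted p = 1.38e-05). Atp6v1g2, a V1 subunit, fell by 0.73 ± 0.14 (adjusted p = 0.000721) with both. With FoxOi Atp6v1g2 was also called as lower, at -0.52 (adjusted p = 0.00766). Rogdi was at 0.48 (adjusted p = 0.0487) with loperamide, a call lost with edgeR's RLE scaling (0.0510), and at -0.22 (adjusted p = 0.319) with both. Of 12 genes that deliver enzymes to the lysosome, 7 rose and 1 fell with FoxOi, 3 rose and 1 fell with loperamide, and 6 rose and 1 fell with both, with medians of 0.38, 0.13 and 0.23. Cln8, which exports the enzymes from the endoplasmic reticulum, rose by 0.87 ± 0.08 (adjusted p = 9.12e-07), 0.44 ± 0.08 (adjusted p = 0.000834) and 0.99 ± 0.08 (adjusted p = 1.79e-07) with FoxOi, loperamide and both. Cln6, its partner in that export, rose by 1.02 ± 0.10 (adjusted p = 2.37e-06) with loperamide and 1.14 ± 0.10 (adjusted p = 2.55e-07) with both. Cln6 was also higher with FoxOi, by 0.56 (adjusted p = 0.000282). Gga2, an adaptor at the Golgi, rose by 0.68 ± 0.08 (adjusted p = 6.78e-06) with FoxOi. Gga2 was also higher with both, by 0.46 (adjusted p = 0.000205), and was at 0.17 (adjusted p = 0.0973) with loperamide.

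Of 17 tested genes for nutrient sensing at the lysosome and control of MiT/TFE factors, 8 rose and 4 fell with FoxOi, 8 rose and 1 fell with loperamide, and 10 rose and 1 fell with both, with medians of 0.39, 0.26 and 0.61. Rragd, a Rag GTPase that ties mTOR to the lysosomal surface, averaged 180.4 ± 20.4 CPM in FoxOi libraries, 150.2 ± 15.9 CPM in Loperamide libraries, 321 ± 41.3 CPM in FoxOi_Loperamide libraries and 47.6 ± 4.74 CPM in DMSO libraries (SD, n = 3 each). All 3 treated groups were above DMSO in every library, with rises of 1.92 ± 0.12 (adjusted p = 2.79e-08) with FoxOi, 1.66 ± 0.12 (adjusted p = 2.65e-07) with loperamide and 2.75 ± 0.13 (adjusted p = 1.12e-09) with both. Flcn, folliculin, which acts on the Rag GTPases, rose by 1.40 ± 0.09 (adjusted p = 8.10e-08) with loperamide. Flcn was also higher with FoxOi, by 0.50 (adjusted p = 0.000353), and with both, by 1.26 (adjusted p = 3.90e-08). Rragc, a partner of the same kind as Rragd, rose by 1.33 ± 0.08 (adjusted p = 7.94e-09) with both. Rragc was higher as well with FoxOi, by 0.89 (adjusted p = 6.29e-07), and with loperamide, by 0.91 (adjusted p = 1.28e-06). The coactivator gene Ppargc1a rose by 2.76 ± 0.55 (adjusted p = 0.000979) with FoxOi at a low level, 1.08 ± 0.399 CPM in FoxOi libraries and 0.149 ± 0.140 CPM in DMSO libraries (SD, n = 3 each).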

How the data were processed

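RNA from 12 Min6 libraries was sequenced as 50-base single reads from stranded mRNA libraries, per the labels' protocols. The authors deposited raw counts per gene and FPKM values; STAR 2.7.5a, Picard 2.19.2 and DESeq2 (version not given there) and the builds GRCm38 and mm10 are named in the submitters' processing notes, while the counting tool, like its strand setting, was not given in the sources used here. Groups come from the labels.

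Counts were tested with edgeR 4.0.16 (R 4.3.3): filterByExpr at a minimum count of 10 chose the genes, TMM scaled the libraries, and 1 quasi-likelihood fit with robust spread and no covariate covered all 12 libraries. Calls were made in 7 comparisons, at p under 0.05 after Benjamini-Hochberg adjustment across 16808 genes. CPM were computed with the TMM-scaled library sizes, and FPKM served to compare levels between genes. Alternatives were DESeq2 1.42.0, RLE (relative log expression) in place of TMM scaling in edgeR, no filter, the compared groups alone and each library left out. Others were limma 3.58.1 on log2(FPKM + 1) or log2(FPKM + 0.1), and the replicate number as a block. Same-numbered libraries share a code in the labels' descriptions. Their deviations from the group means correlated at 0.12 to 0.65 in all 18 pairs. The 36 pairs of different number gave -0.63 to 0.19, so the numbers were taken to pair libraries. The main fit, and so every call not marked otherwise, leaves this pairing out, while the fit with the block uses it. Against DMSO the block gave 41, 40 and 43 members with FoxOi, loperamide and both, beside 56.1%, 48.7% and 59% of all genes tested. Limits from 0 counts cover counting error only.

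The members and gene lists were chosen with earlier results of these data known. Any member could be named; values in every library are given for 13 members of known roles and for the members with the largest changes of each class, and from the other lists at most 2 called genes per list and comparison. The scripts were tested on simulated data.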

Additional observations from a re-analysis of the deposited data

Results flagged for a closer look

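For 8 members the effect of loperamide differed with and without the inhibitor, by a test of the difference itself (edgeR's interaction term, adjusted over all genes tested, of which 9.48% were called). In each case the difference was negative, so that loperamide's log2 effect was smaller, or more strongly negative, beside FoxOi than beside DMSO. The fit with the replicate number as a block, which uses the pairing, called 6 positive and 18 negative members, beside 11.4% and 14.4% of all genes tested. For Cd63 the difference was -0.82 ± 0.12 (adjusted p = 0.000523) and for Mitf -1.19 ± 0.22 (adjusted p = 0.00299), and both calls held under every alternative.

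The other 6 were lost under at least 1 alternative. For Tpp1 loperamide's effect was 0.22 ± 0.11 beside FoxOi and 0.85 ± 0.11 beside DMSO, a difference of -0.63 ± 0.15 (adjusted p = 0.0143), lost without DMSO replicate 2 (0.0641). For Ctsf the effects were 0.14 ± 0.10 and 0.73 ± 0.10, a difference of -0.59 ± 0.14 (adjusted p = 0.0125), lost without DMSO replicate 2 (0.0601). For Arsa they were -0.01 ± 0.10 and 0.56 ± 0.10, a difference of -0.57 ± 0.14 (adjusted p = 0.0221), lost without FoxOi replicate 3, Loperamide replicate 3, FoxOi_Loperamide replicate 1 or 2 or DMSO replicate 1 or 2 (0.0508 to 0.0844) and on unfiltered FPKM (0.0582). For Mcoln1 they were 0.19 ± 0.08 and 0.61 ± 0.09, a difference of -0.41 ± 0.12 (adjusted p = 0.0438), lost without FoxOi replicate 1 or 3, Loperamide replicate 1, 2 or 3, FoxOi_Loperamide replicate 1 or 2 or DMSO replicate 1, 2 or 3 (0.0567 to 0.174), with no filter on low counts (0.145) and on unfiltered FPKM (0.0552). For Atp6v0b they were 0.14 ± 0.08 and 0.58 ± 0.08, a difference of -0.44 ± 0.11 (adjusted p = 0.0248), lost without FoxOi replicate 1 or 3, Loperamide replicate 1, FoxOi_Loperamide replicate 2 or 3 or DMSO replicate 2 or 3 (0.0534 to 0.0923), with no filter on low counts (0.0594) and on unfiltered FPKM (0.0756). For Atp6v1h they were -0.22 ± 0.07 and 0.18 ± 0.07, a difference of -0.40 ± 0.10 (adjusted p = 0.0179), lost without FoxOi replicate 1, Loperamide replicate 1, FoxOi_Loperamide replicate 2 or DMSO replicate 1 or 2 (0.0502 to 0.0966) and with no filter on low counts (0.155).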

How the results depend on the processing

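No value of a member, and none of the other lysosomal genes named, called in the main test reversed under any alternative. The number of called members against DMSO was within 1.5 times under all alternatives but 1: with the replicate block, loperamide gave 40 members (8179 genes in all). The block also gave 31 members (7504 genes) for FoxOi_Loperamide against FoxOi and 24 (4334 genes) for the interaction, and moved no other count by over 1.5 times. Without single libraries FoxOi_Loperamide against FoxOi gave 11 to 15 members (3284 to 3881 genes in all). The 11 members came without FoxOi_Loperamide replicate 1 (3684 genes). The interaction gave 2 to 8 members (1082 to 1894 genes in all). It gave 2 without DMSO replicate 2 (1082 genes) and 4 without FoxOi_Loperamide replicate 2 (1199 genes). It gave 5 without Loperamide replicate 1 (1255 genes) or without FoxOi replicate 1 (1544 genes) or 3 (1246 genes). Unfiltered FPKM gave the interaction 5 members (1441 genes), and the cause was not tested. DESeq2 gave 32, 29 and 37 members for FoxOi, loperamide and both against DMSO, beside 6744, 5312 and 7484 of all genes. Of the calls, 29 of 32 (FoxOi), 20 of 26 (loperamide) and 33 of 37 (both) against DMSO held under every alternative, as did 10 of 18 for FoxOi_Loperamide against FoxOi, 24 of 32 against Loperamide, 24 of 28 for FoxOi against Loperamide and 2 of 8 for the interaction. With 3 libraries a group, a value that was not called does not show an unchanged gene, and Mitf and Tfeb rest on few counts.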
